A study of Mus musculus with 8 samples.

Results

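The ventral granule cell genes described here are Trhr, Atp2b4, Stk32b, Pde9a, Ano2 and Timp2. These 6 were taken by name from a list of 12 dentate granule cell (DGC) genes that the study placed along the hippocampus, and all 6 were found among the 46517 genes of the bulk tables and the 24051 genes of the nuclei tables. The study drew up that list while looking at DGC nuclei from these same mice, so it is not independent evidence of the direction in which the genes moved. For the place of each gene along the hippocampus, the study also used Allen Brain Atlas in situ hybridization images of adult mouse brain. The other 6 genes of the list (Dhrs7, Il27ra, Lct, Nptx2, Robo3 and Sox4) are its dorsal genes and serve as a comparison.

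All mice were adult and carried the Gfap-Cre transgene. The mutant, Wls fl/-;Gfap-Cre, has 1 floxed and 1 null Wls allele, whereas the control, Wls fl/+;Gfap-Cre, has 1 floxed and 1 intact allele. Cre was therefore present in both genotypes, driven by a Gfap promoter that is active in neural progenitors as well as in astrocytes, and the mutants lacked 1 copy of Wls in every cell. Each of the 8 libraries came from both hippocampi of a single mouse, with 2 libraries per genotype for bulk RNAseq and 2 for single nucleus RNAseq (snRNAseq).

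The dentate gyrus runs along the hippocampus from its dorsal to its ventral end, and its granule cells express partly different genes along that axis. Wls (Wntless) carries Wnt proteins to the cell surface, and Wnt signaling is required for granule cell production in the developing dentate gyrus. The 6 genes belong to unrelated pathways. Trhr encodes the Gq-coupled receptor for thyrotropin-releasing hormone, Atp2b4 a plasma membrane calcium pump, Ano2 a calcium-activated chloride channel, Pde9a a cGMP-specific phosphodiesterase, Stk32b a little studied serine/threonine kinase, and Timp2 a secreted inhibitor of matrix metalloproteinases.

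In the GRCm38 annotation, Trhr lies on chromosome 15 (44196135 to 44235912, plus strand), Atp2b4 on chromosome 1 (133699457 to 133801041, minus strand) and Stk32b on chromosome 5 (37446825 to 37717171, minus strand). Pde9a lies on chromosome 17 (31386210 to 31476310, plus strand), Ano2 on chromosome 6 (125690419 to 126040126, plus strand) and Timp2 on chromosome 11 (118301069 to 118355740, minus strand). Trhr and Stk32b overlap no other annotated gene. Timp2 has the protein-coding gene Cep295nl inside it on the same strand, and Pde9a has 2 antisense genes opposite it. Reads in the nuclei were counted over whole transcripts with their introns, so a read from such a nested gene could be ambiguous.

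Because the genes moved together in DGCs, the sequences before their RefSeq start sites are shown. RefSeq windows on GRCm38.p6 matched 4 of the 6 genes, and Trhr and Pde9a had no entry. The 250 bases before each start were searched on both strands for CTTTGA, the core of the TCF/LEF site through which Wnt and beta-catenin act, for the E-box CANNTG, and for TGACGTCA, a cyclic AMP response element. The runs printed stop where an annotated exon begins, and capitals mark an E-box. They come from an internal Atp2b4 start (chr1:133753750-133753997, minus strand), inside the gene's annotated span, Stk32b (chr5:37717172-37717403, minus strand), the first Ano2 start (chr6:125690169-125690418, plus strand) and a downstream Ano2 start (chr6:125710938-125711187, plus strand).
Atp2b4 internal start: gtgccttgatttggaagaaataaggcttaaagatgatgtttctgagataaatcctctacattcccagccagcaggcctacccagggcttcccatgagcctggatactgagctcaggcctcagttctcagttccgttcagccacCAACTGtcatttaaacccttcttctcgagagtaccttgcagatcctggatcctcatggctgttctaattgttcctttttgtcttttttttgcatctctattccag
Stk32b: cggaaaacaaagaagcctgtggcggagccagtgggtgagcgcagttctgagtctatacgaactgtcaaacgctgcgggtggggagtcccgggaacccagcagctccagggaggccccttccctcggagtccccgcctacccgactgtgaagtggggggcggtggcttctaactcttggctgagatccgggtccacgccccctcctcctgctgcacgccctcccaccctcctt
Ano2 first start: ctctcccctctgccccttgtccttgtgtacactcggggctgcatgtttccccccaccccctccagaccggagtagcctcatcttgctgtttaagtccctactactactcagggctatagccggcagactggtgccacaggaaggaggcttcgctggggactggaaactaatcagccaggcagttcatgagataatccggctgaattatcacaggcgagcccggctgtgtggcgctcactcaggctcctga
Ano2 downstream start: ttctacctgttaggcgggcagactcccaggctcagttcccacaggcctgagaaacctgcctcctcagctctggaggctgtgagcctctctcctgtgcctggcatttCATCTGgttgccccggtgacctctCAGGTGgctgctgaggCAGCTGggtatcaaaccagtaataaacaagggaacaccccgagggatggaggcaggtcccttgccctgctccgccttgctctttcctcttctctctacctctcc

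CTTTGA matched in 0 of the 6 windows of these 4 genes, and 13.8% of the 32817 windows of the whole table hold it. The E-box matched at 1 place in the Atp2b4 window, at 1 in an Ano2 window that overlaps the first one and is not printed, at 3 in the downstream Ano2 window and at 2 in the Timp2 window, which lies mostly inside an annotated exon and is not printed. Thus 4 of the 6 windows hold an E-box, as do 66.2% of all windows. TGACGTCA was in 0 of the 6 windows and in 1.55% of all windows.

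The bulk libraries held about 56002400 to 79576200 expected counts. The snRNAseq libraries held 5304 and 10460 mutant nuclei and 6469 and 7192 control nuclei, and any pair of libraries shared 8 to 21 barcodes. Wls stood at 2.61 and 5.44 TPM (transcripts per 1000000 transcripts) in mutant and at 10.5 and 10.1 TPM in control bulk tissue. In bulk, replicate 2 of both genotypes had Xist at 101 (mutant) and 175 TPM (control), against 0.35 and 0.12 TPM in replicate 1, although all mice were labelled male.

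Nuclei labelled as DGCs numbered 90 and 463 in the mutants and 2336 and 2007 in the controls. The markers Prox1, Dsp, C1ql2 and Plk5 were summed as UPM (UMIs per 1000000 UMIs) and stood at 372 and 390 UPM in the mutant DGC nuclei and at 421 and 401 UPM in the control ones. Most of that sum was Prox1, the transcription factor that marks granule cells, at 299 and 333 UPM in mutants and 283 and 283 UPM in controls. The other 3 markers were lower in both mutants than in both controls: Dsp was at 33.8 and 25.7 UPM against 46.4 and 39.0 UPM, Plk5 at 31.4 and 17.2 UPM against 51.1 and 40.5 UPM, and C1ql2 at 7.24 and 14.6 UPM against 41.1 and 38.8 UPM. The label thus held by Prox1 in all 4 libraries, and less by the other markers in mutants. Of the marker lists of 14 other cell classes, summed in the DGC nuclei, 4 were higher in both mutants, 3 were lower and 7 overlapped. Higher were those of endothelium (12.1 and 20.1 UPM against 3.78 and 6.58 UPM), microglia (96.6 and 102 UPM against 64.2 and 77.9 UPM), astrocytes (241 and 221 UPM against 202 and 205 UPM) and oligodendrocytes (157 and 169.6 UPM against 155 and 145 UPM). Lower were those of CA2 (43.5 and 38.5 UPM against 78.2 and 70.1 UPM), excitatory neurons (263 and 308 UPM against 377 and 412 UPM) and inhibitory neurons (45.9 and 35.3 UPM against 47.7 and 46.4 UPM). Those of choroid plexus and mossy cells overlapped, with the mossy cell gene Drd2 at 0 to 0.292 UPM. Their part in the results was not tested.

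The first question was whether the ventral genes differ between genotypes within DGCs. All 6 were higher in both mutants than in both controls. UMIs of each gene were summed over the DGC nuclei of a mouse and given as UPM. Trhr, the hormone receptor, stood at 60.4 and 56.9 UPM in the mutants and at 6.68 and 7.44 UPM in the controls. As a ratio the Trhr gap was the widest of the 6, and the mutant mice hardly differed from each other.

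Atp2b4, the calcium pump, stood at 91.8 and 115 UPM in mutants and at 35.6 and 35.8 UPM in controls, which hardly differed from each other. Stk32b was at 36.2 and 69.5 UPM in mutants and at 9.06 and 15.2 UPM in controls. For both genes each mutant was at least 2.38 times the higher control. Ano2, the chloride channel, was at 33.8 and 74.7 UPM in mutants and at 14.5 and 11.1 UPM in controls.

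The remaining genes, Pde9a and Timp2, showed the smallest steps in mutant replicate 1. Pde9a was at 19.3 and 45.8 UPM in mutants and at 12.7 and 12.5 UPM in controls. Timp2 was at 16.9 and 44.4 UPM in mutants and at 10.8 and 9.96 UPM in controls. Mutant replicate 1 was therefore 1.52 times the higher control for Pde9a and 1.56 times for Timp2, whereas replicate 2 was 3.60 and 4.10 times. The mutant replicate 1 values rest on few UMIs, 8 for Pde9a and 7 for Timp2 against 25 for Trhr.

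**Figure D1:**
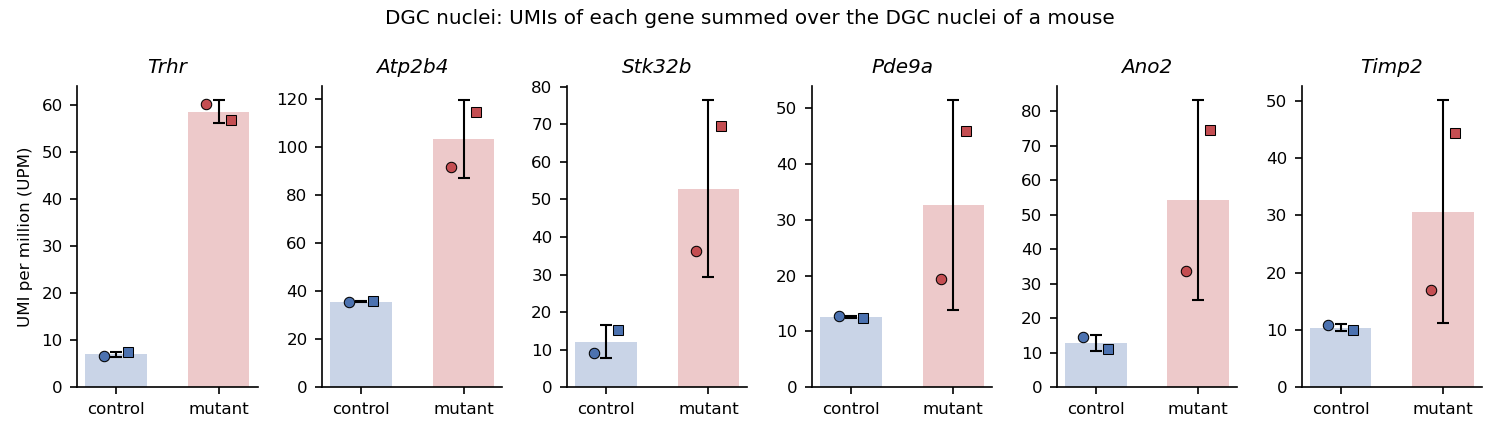
Level of each ventral gene in DGC nuclei, as UPM, with 1 panel per gene and its own axis from 0; bars are means, error bars SD and points single mice (circle replicate 1, square replicate 2; n = 2 per genotype). Both mutant points lie above both control points in every panel, and mutant replicate 1 lies below replicate 2 for each gene but Trhr.

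Fitted over all 15003 genes tested in DGC nuclei (edgeR quasi-likelihood test, Benjamini-Hochberg adjusted p-values), all 6 genes rose at a fold change (FC) above 2 and an adjusted p below 0.05. Of all genes tested, 0.827% were called higher on that rule, and 22.2% had both mutants above both controls. Trhr rose by 3.04 on the log2 scale (SE 0.22, adjusted p = 0.00164), Ano2 by 2.31 (SE 0.30, adjusted p = 0.008) and Stk32b by 2.29 (SE 0.32, adjusted p = 0.0105). Timp2 rose by 1.85 (SE 0.31, adjusted p = 0.0242), Pde9a by 1.64 (SE 0.29, adjusted p = 0.028) and Atp2b4 by 1.59 (SE 0.18, adjusted p = 0.00662). The median log2 change of the 6 was 2.07 and that of all genes tested was -0.01. These are differences in the summed level of the nuclei labelled DGC. A change within nuclei and a change in which DGCs were present cannot be told apart in them.

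The calls rest on mutant replicate 2, which holds 463 of the 553 mutant DGC nuclei. Without it 0 of the 6 passed, as did 0 of all 16368 genes then tested, although every log2 change stayed above 0, from 0.57 for Pde9a to 3.05 for Trhr. Not every call held without mutant replicate 1 either, which leaves 1 mutant library. After thinning each nucleus to 1500 UMIs, Pde9a and Timp2 did not pass and the other 4 did, where 0.71% of all genes were called higher.

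The dorsal genes moved the other way. Of those 6, 4 fell at the same thresholds, where 0.64% of all genes were called lower, and all 6 were lower in both mutants than in both controls, as were 26.1% of all genes. Robo3, an axon guidance receptor, fell by 2.28 on the log2 scale (SE 0.30, adjusted p = 0.00877), and Sox4, Dhrs7 and Lct fell by 1.92, 1.87 and 1.43. Nptx2 and Il27ra had log2 changes of -1.64 and -1.74 with adjusted p-values of 0.0976 and 0.149.

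The share of DGC nuclei with at least 1 UMI of a gene gave the same order of genotypes. A Trhr UMI was found in 21.1% (exact 95% binomial interval 13.2% to 31.0%) and 31.7% (27.5% to 36.2%) of mutant DGC nuclei and in 2.70% (2.08% to 3.44%) and 4.53% (3.67% to 5.54%) of control ones. For Atp2b4 the shares were 30.0% and 49.2% in mutants against 14.5% and 20.9% in controls, and for Ano2 12.2% and 35.9% against 6.04% and 7.77%. Stk32b was found in 14.4% and 33.5% of mutant and 4.28% and 9.72% of control DGC nuclei. Only for Pde9a and Timp2 did the groups overlap: the 7.78% and 6.67% of mutant replicate 1 lay below the 8.57% and 7.32% of control replicate 2. These intervals cover counting error only. Among DGC nuclei with a Trhr UMI, the mean number of Trhr UMIs was 1.32 and 1.33 in mutants and 1.21 and 1.33 in controls, so the genotypes overlapped there. The same mean for Ano2 was 1.27 and 1.54 UMIs in mutants and 1.17 and 1.16 UMIs in controls.

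Depth differed between the libraries, with a median of 4242 and 7126 UMIs per DGC nucleus in mutants and 4628 and 7688 UMIs in controls. After thinning every DGC nucleus to 1500 UMIs, which left out none, Trhr was found in 4.44% and 7.99% of mutant and 0.985% and 1.3% of control nuclei, and Pde9a in 2.22% and 6.91% of mutant and 1.80% and 2.24% of control nuclei. Mutant replicate 1 thus lay above both controls for Trhr but below control replicate 2 for Pde9a, so the Pde9a groups overlapped. Thinned Timp2 was at 1.11% in mutant replicate 1 and at 1.76% and 1.49% in the controls, so its groups overlapped too. In microglia, which are not known to use Trhr, 0 of 332 nuclei of mutant replicate 2 and 0 of 287 nuclei of control replicate 2 had a Trhr UMI (exact upper bounds 1.10% and 1.28%), at a pooled median of 2036 UMIs against 5844 UMIs in DGC nuclei. Timp2 was found in 14.8% and 15.7% of those same microglia, but microglia hold more Timp2 per UMI than DGCs do, at 44.1 and 68.0 UPM in controls, so they give no background level for that gene.

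Taking the genes jointly, 57.8% and 82.5% of mutant DGC nuclei and 31.2% and 39.7% of control DGC nuclei had a UMI of at least 1 of the 6 genes. At least 2 of the 6 were found in 23.3% and 59.2% of mutant and in 5.82% and 13.1% of control nuclei. After thinning, the first of these shares was 28.9% and 44.1% in mutants and 12.1% and 12.6% in controls. The thinned values of the controls are nearly equal, and both mutants lie above them.

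Because DGCs were few in the mutants, a larger share did not mean more nuclei. DGC nuclei with a Trhr UMI numbered 3.58 and 14.1 per 1000 nuclei of the library in mutants and 9.74 and 12.7 per 1000 in controls, so the genotypes overlapped by this count. For each of the other 5 genes both mutants were below both controls; Atp2b4, for example, was found in 5.09 and 21.8 DGC nuclei per 1000 in mutants and in 52.4 and 58.4 per 1000 in controls. DGC nuclei with none of the 6 genes numbered 7.16 and 7.74 per 1000 in mutants against 248 and 168 per 1000 in controls. Those with at least 2 of the 6 numbered 3.96 and 26.2 per 1000 in mutants and 21.0 and 36.6 per 1000 in controls, so the groups overlapped there. Both overlaps depended on counting DGCs among the nuclei of the library. Per 1000 nuclei that are not DGCs, DGC nuclei with a Trhr UMI numbered 3.64 and 14.7 in mutants and 15.2 and 17.6 in controls. Those with at least 2 of the 6 then numbered 4.03 and 27.4 against 32.9 and 50.7, so neither overlapped. With 2 mice per genotype an exact permutation test of such values cannot go below p = 0.33, and none was run.

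**Figure D2:**
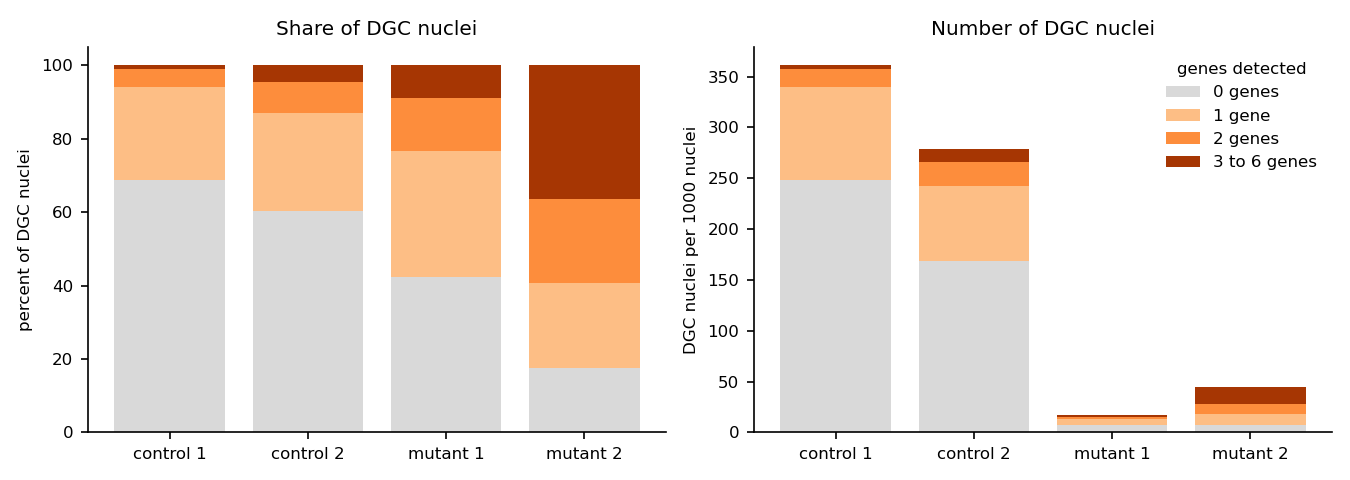
DGC nuclei by how many of the 6 ventral genes had a UMI, as percent of the DGC nuclei of a library (left) and as DGC nuclei per 1000 nuclei of that library (right), with 1 stacked bar per mouse. On the left the grey part without any of the genes is 42.2% and 17.5% in mutants and 68.8% and 60.3% in controls; on the right it shrinks from 248 and 168 to 7.16 and 7.74 per 1000.

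How often the 6 genes occurred in the same nuclei differed between libraries. Within 5 strata of UMI depth, the median odds ratio over the 15 pairs of ventral genes was 1.44 and 2.29 in control and 1.25 and 1.65 in mutant DGC nuclei, with 11 and 15 of the 15 pairs above 1 in controls and 9 and 15 in mutants. Over the 36 pairs of 1 ventral and 1 dorsal gene the median was 0.964 and 0.730 in controls and 0 and 0.674 in mutants, where mutant replicate 1 gave a value for 29 pairs and had 3 nuclei with both genes in all. These values are a description of nuclei that share a library, and most counts were 0 or 1.

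The genes whose presence in control DGC nuclei followed the 6 most closely were Sgcz, Tenm2, Car10, Cdh13, Grik4, Trpm3, Dscaml1, Synpr, Aig1 and Ptprd. The ranking among 4624 genes used the correlation with the number of ventral genes detected in a nucleus, in both controls and after thinning. The correlations were weak, 0.0818 and 0.144 for Sgcz at the top. Of these 10 genes, 3 (Sgcz, Car10 and Cdh13) were called higher in mutant DGC nuclei, and 9 had both mutants above both controls, against 0.827% and 22.2% of all genes. Of the 10 genes most opposed to the number of ventral genes detected, 1 (Clmp) was called lower. Both mutants were below both controls for 9 of them, against 0.64% called lower and 26.1% below among all genes. Sgcz, which encodes zeta-sarcoglycan, stood at 440 and 544 normalized CPM (counts per 1000000 counts) in mutants and 145 and 146 CPM in controls. These genes were chosen with the same control nuclei that enter the comparison, so this is a description.

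Most relatives of the 6 genes were not called in DGC nuclei. Of 46 relatives listed (the thyrotropin-releasing hormone system, calcium pumps, STK32 kinases, cGMP genes, anoctamins, and the TIMPs with their proteases), 35 were tested, 3 were called higher and 0 lower, and their median log2 change was 0.07. Of all genes tested in DGC nuclei, 0.827% were called higher and 0.64% lower. Among the cGMP genes, Pde1a, a calcium-dependent phosphodiesterase, rose by 1.60 (SE 0.17, adjusted p = 0.00459), with 349 and 389 CPM in mutants and 111 and 134 CPM in controls. Prkg2, a cGMP-dependent protein kinase, rose by 2.10 (SE 0.31, adjusted p = 0.0134), from 4.39 and 4.45 CPM to 21.5 and 18.1 CPM. Ano4, an anoctamin like Ano2, rose by 1.79 (SE 0.22, adjusted p = 0.00778), with 153 and 98.3 CPM against 33.9 and 33.8 CPM.

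None of the 3 other plasma membrane calcium pumps was called; Atp2b1 had a log2 change of -0.43 (adjusted p = 0.174). Of the genes that work with Trhr, the peptidase Trhde had a log2 change of -0.73 (adjusted p = 0.11), and the phospholipase Plcb1 of -0.31 (adjusted p = 0.309). For Timp2, none of the 9 tested TIMPs and proteases was called. A further list of 6 genes known from ventral hippocampus, not from the study, had 5 members tested and 1 called: Nr2f2, a nuclear receptor, rose by 2.06 (SE 0.24, adjusted p = 0.00662), at 31.1 and 47.8 CPM in mutants and 10.2 and 10.5 CPM in controls. In the same list Grp and Etv1 were lower in both mutants, at log2 changes of -0.56 and -0.60, neither past the test.

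The second question was where else in the hippocampus the genes are used. The deposited tables assign nuclei to 21 types, of which 18 had at least 10 nuclei in every library. The 6 genes did not share a pattern across these types. Over the 18 control means the correlations between pairs ran from -0.47 (Ano2 and Timp2) to 0.57 (Trhr and Atp2b4), as a description over types that share libraries.

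Ano2 was the only one of the 6 with its highest control level in DGCs, at a mean of 12.8 UPM, though its range overlapped that of the next type, inhibitory neurons 18. Trhr was highest in excitatory neurons 13, at 21.7 and 33.9 UPM in controls, with DGCs and mossy cells next at 7.06 and 6.64 UPM on average and overlapping. Stk32b was highest in inhibitory neurons 5, at 43.0 and 41.0 UPM, followed by oligodendrocyte precursors and DGCs, whose ranges overlapped. In mutants DGCs had the highest mean for Stk32b, at 36.2 and 69.5 UPM, and overlapped inhibitory neurons 5 at 24.6 and 40.1 UPM.

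The other genes had little preference for DGCs. Atp2b4 was highest in excitatory neurons 8, at 206 and 221 UPM in controls, and DGCs came seventh. Pde9a was highest in mossy cells, at 85.2 and 74.1 UPM, with DGCs eleventh at a mean of 12.6 UPM. Timp2 was highest in the nuclei labelled excitatory neurons 19, at 201 and 347 UPM, with DGCs in place 17 of 18 and only CA2 below. Of the meningeal markers listed, only Lum was highest in that last leading type, as was the CA2 marker Pcp4. The others, Dcn, Col1a2 and Slc22a6, were highest in the nuclei labelled inhibitory neurons 14, which came next for Timp2. The labels of both types are therefore doubtful.

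For 5 of the 6 genes the nearest match among 14676 genes over the 18 types, by correlation of log control levels, is given, and these were 5 different genes. Tmem132a was nearest to Trhr (r = 0.85), Tshz3 to Atp2b4 (r = 0.89), Sytl5 to Stk32b (r = 0.83), Gm34354 to Pde9a (r = 0.86) and Tuba1b to Timp2 (r = 0.91).

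**Figure D3:**
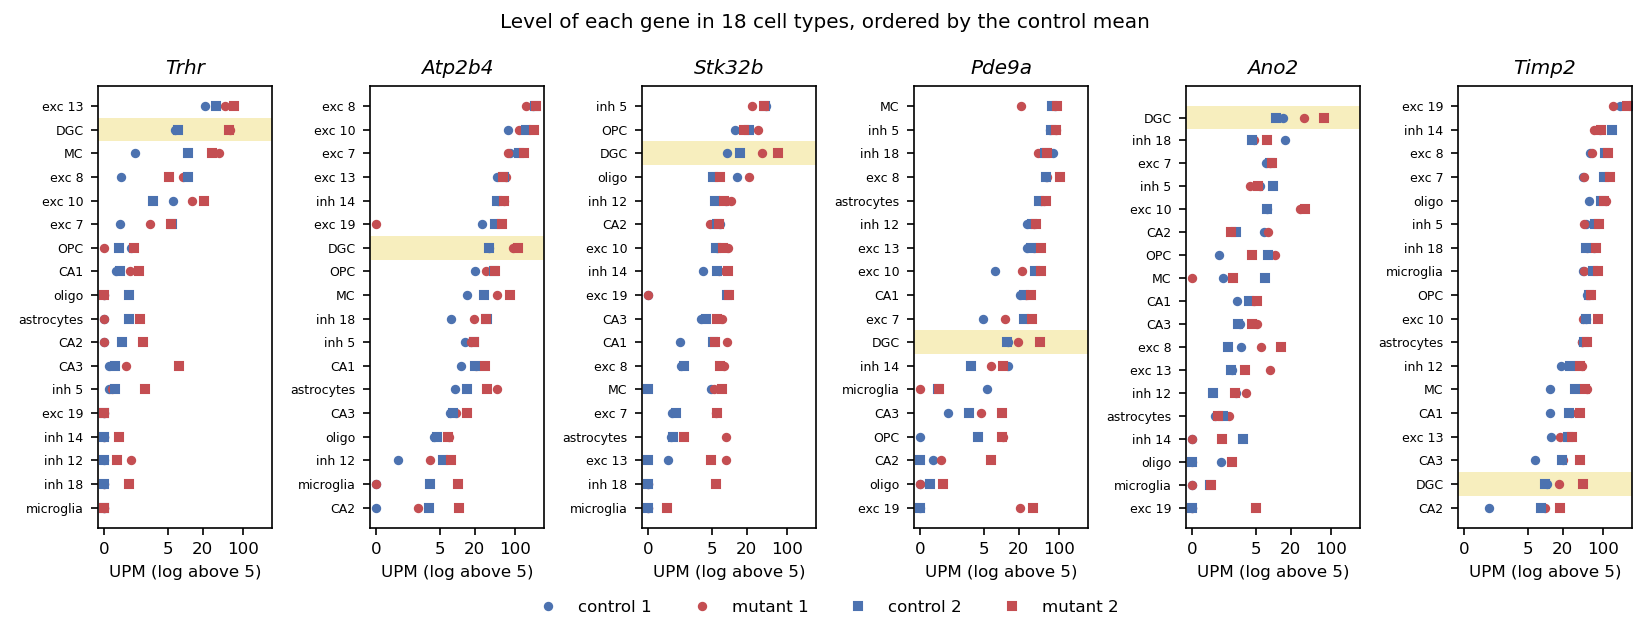
Level of each ventral gene as UPM (linear to 5, log above) in the 18 types with enough nuclei, ordered by the control mean; blue points are control and red points mutant mice, circles replicate 1 and squares replicate 2, and the band marks DGCs. DGCs lead in controls for Ano2, come after excitatory neurons 13 for Trhr, and are next to last for Timp2.

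In the 17 other types, 56 combinations of gene and type had enough counts, and 0 of them passed FC above 2 and adjusted p below 0.05 in edgeR, the only tool run there. Over all genes and types 0.0359% were called higher and 0.0395% lower, with at most 0.439% called higher in any type. At an unadjusted p below 0.05, 18 of the 56 passed, all of them higher in mutants. The share of all genes and types at that p is not given here, so this count is a description. Both mutants were above both controls in 31 of the 56 and below in 1, where 19.7% and 20.2% of all genes and types did so.

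CA1 and CA3 pyramidal cells made up 12 of those 31. All 6 genes were above the controls in both mutants in each of these types, where 22.3% (CA1) and 22.4% (CA3) of all genes were. In CA1, Trhr was at 1.97 and 2.73 UPM in mutants and 0.913 and 1.22 UPM in controls, and Timp2 at 28.2 and 40.2 UPM against 12.1 and 25.3 UPM. In CA3, Trhr was at 1.70 and 7.82 UPM against 0.393 and 0.866 UPM (log2 change 3.02, SE 0.69, adjusted p = 0.184). Those CA3 levels rest on 5 and 107 Trhr UMIs in mutants and 2 and 8 in controls. None of the CA1 or CA3 differences passed the test.

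Outside the pyramidal cells, Atp2b4 came nearest to the threshold. In astrocytes it was at 48.7 and 32.6 UPM in mutants and 8.94 and 14.6 UPM in controls, a log2 change of 1.61 (SE 0.35, adjusted p = 0.0515). In mossy cells, of which a library held 27 to 89, Atp2b4 was at 48.2 and 80.4 UPM against 14.6 and 28.9 UPM (log2 change 1.66, SE 0.41, adjusted p = 0.0942). That log2 change ran from 1.12 to 2.28 when 1 library was left out. Trhr in mossy cells was at 37.5 and 29.0 UPM against 2.43 and 10.8 UPM (log2 change 2.11, SE 0.64, adjusted p = 0.195). Those mossy cell levels rest on few UMIs, 7 and 27 in mutants and 1 and 6 in controls. In excitatory neurons 10, Ano2 was at 29.1 and 34.9 UPM against 7.59 and 7.63 UPM (log2 change 2.12, SE 0.40, adjusted p = 0.176).

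Whether the mutant effect in DGCs differs from that elsewhere was tested directly. Against the mean effect of the 17 other types, the difference could be fitted for 2 of the 6 genes, and both passed an adjusted p below 0.05, where 0.323% of genes were called higher in DGCs. It was 0.82 for Atp2b4 (SE 0.22, adjusted p = 0.0458) and 1.35 for Timp2 (SE 0.25, adjusted p = 5.8e-04), on the log2 scale. The other 4 had types with no UMI in a genotype and could not be fitted. Neither gene passed without control replicate 2 or without mutant replicate 2, and 1 did without mutant replicate 1.

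Against CA1 alone, 3 of the 6 differed, where 0.574% of genes were called higher in DGCs. The effect in DGCs exceeded that in CA1 by 1.95 for Ano2 (SE 0.36, adjusted p = 4.7e-04), by 1.61 for Stk32b (SE 0.31, adjusted p = 0.00103) and by 1.20 for Pde9a (SE 0.29, adjusted p = 0.0164). For Trhr, Atp2b4 and Timp2 the difference was 1.80, 0.79 and 0.85 with adjusted p-values of 0.1, 0.0706 and 0.191. The 3 calls were lost without control replicate 2 or without mutant replicate 2, each of which leaves 1 library in a genotype. Against the sum of all other nuclei, a reference added after seeing the data, all 6 passed, by 0.63 (Atp2b4) to 1.98 (Stk32b), where 1.73% of genes were called higher and 0.926% lower in DGCs; without mutant replicate 2 none did, and without control replicate 2 only 2.

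The last question was what whole tissue shows. In bulk hippocampus the 6 genes did not move together. In a tissue, fewer cells of a type and less RNA per cell cannot be told apart. Trhr was lower in mutants, at 1.14 and 0.41 TPM against 1.89 and 1.66 TPM, as was Ano2, at 0.97 and 0.28 TPM against 2.38 and 1.18 TPM. Atp2b4 was at 24.5 and 12.2 TPM in mutants and 34.3 and 32.3 TPM in controls. In all 3 genes mutant replicate 2 had the lowest value and no mutant reached a control.

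Timp2 and Pde9a were slightly higher in mutants. Timp2 was at 137 and 162 TPM against 134.5 and 120.5 TPM, and Pde9a at 21.4 and 19.7 TPM against 15.04 and 17.5 TPM. Stk32b overlapped between genotypes, at 5.10 and 4.27 TPM in mutants and 4.83 and 5.34 TPM in controls. Per length, Timp2 was thus the most abundant of the 6 in tissue and Trhr and Ano2 the least.

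**Figure D4:**
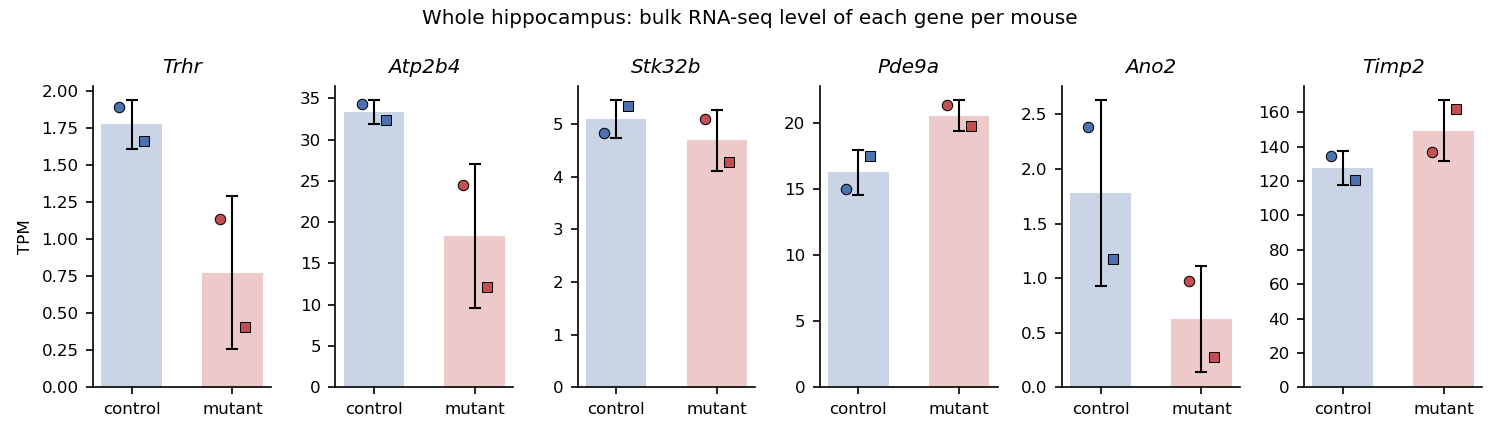
Level of each ventral gene in whole hippocampus as TPM, with 1 panel per gene and its own axis from 0; bars are means, error bars SD and points single mice (circle replicate 1, square replicate 2; n = 2 per genotype). Both mutant points lie below the controls for Trhr, Atp2b4 and Ano2, above them for Pde9a and Timp2, and among them for Stk32b.

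Over 20687 genes tested in bulk, 0 of the 6 passed FC above 3 and adjusted p below 0.05 in edgeR, and 0 passed in DESeq2, where edgeR called 0.0193% of genes higher and 0.198% lower. At an unadjusted p below 0.05, 4 of the 6 passed in edgeR (2 higher, 2 lower) and 5 in DESeq2 (2 higher, 3 lower). The share of all genes at that p is not given here, so these counts are a description. The log2 changes were -1.3 for Trhr (SE 0.43, adjusted p = 0.208), -1.52 for Ano2 (SE 0.72, adjusted p = 0.34), -0.81 for Atp2b4 (SE 0.23, adjusted p = 0.163), -0.03 for Stk32b (SE 0.16, adjusted p = 0.94), 0.33 for Pde9a (SE 0.13, adjusted p = 0.254) and 0.41 for Timp2 (SE 0.07, adjusted p = 0.0686). Both mutants were below both controls for 3 of the 6 and above for 2, where 25.4% and 25.8% of all genes were. Without mutant replicate 1, which leaves 1 mutant library, the log2 changes of Trhr and Ano2 were -2.08 and -2.82.

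Markers of the choroid plexus moved with these samples. The 5 markers Ttr, Folr1, Kl, Clic6 and Otx2 summed to 1110 and 9090 TPM in mutant and to 175 and 74.3 TPM in control bulk tissue, and the DGC markers to 20.9 and 15.2 TPM against 127 and 131 TPM. Their part in the bulk levels was not tested. Within the libraries of replicate 1, with low Xist, the log2 ratio of mutant to control was -0.88 for Trhr, -1.3 for Ano2 and -0.72 for Atp2b4. Within those of replicate 2, with high Xist, it was -1.98, -2.11 and -0.93. Since both mutants lay below both controls for these genes, any pairing would give a negative ratio. For Stk32b, whose groups overlapped, the log2 ratio was 0.20 within replicate 1 and -0.27 within replicate 2.

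Summed over all nuclei of a library, the same genes pointed upward. Both mutants exceeded both controls for each of the 6, where 24.5% of genes did so and 24% had both mutants lower. However, 0 passed in edgeR, which called 0% of all 20575 genes. An unadjusted p below 0.05 was reached in edgeR by 4 of the 6, all higher in mutants. The share of all genes at that p is not given here, so this count is a description. DESeq2 called 1, Trhr, where it called 119 of all 24051 genes higher (0.495%) and 172 lower. The log2 changes were 1.13 for Trhr (SE 0.26, adjusted p = 0.203), 0.84 for Atp2b4 (SE 0.13, adjusted p = 0.168), 0.80 for Timp2, 0.79 for Pde9a, 0.36 for Ano2 and 0.35 for Stk32b. Trhr, Atp2b4, Ano2 and Stk32b thus had opposite signs in bulk and in summed nuclei, as did 43.8% of the 15839 genes tested in both, and this difference was not tested. The make-up of the nuclei moved with the summed levels: DGCs were 1.70% and 4.43% of the nuclei in mutants and 36.1% and 27.9% in controls. Excitatory neurons 8, the leading type for Atp2b4, numbered 581 and 369 nuclei in mutants and 162 and 91 in controls, and excitatory neurons 10 numbered 286 and 368 against 74 and 40. Their part in the summed levels was not tested.

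**Figure D5:**
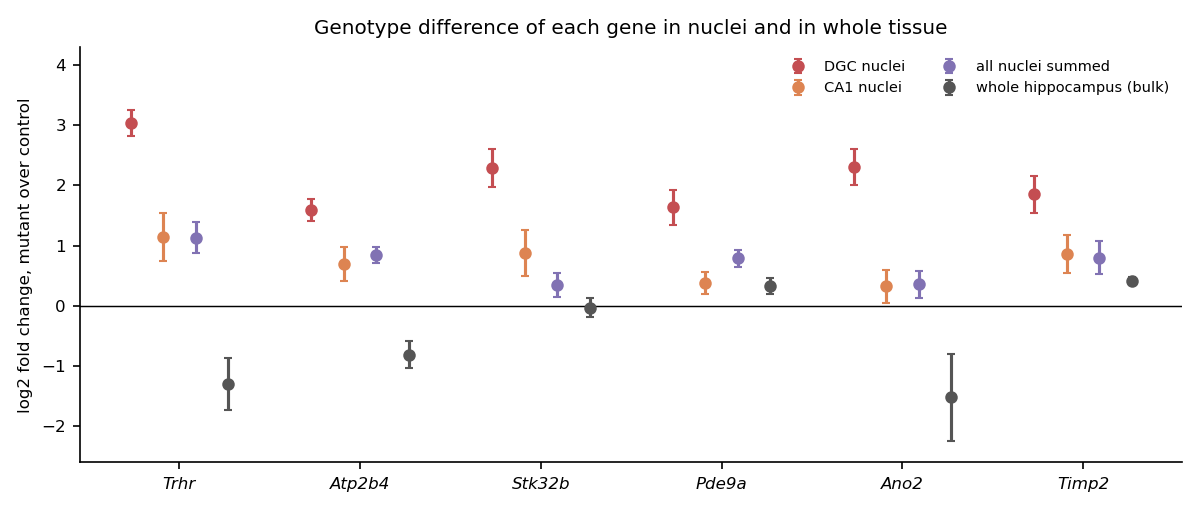
Log2 fold change of mutant over control for each ventral gene in DGC nuclei, CA1 nuclei, all nuclei summed, and whole hippocampus, from separate edgeR fits with 2 mice per genotype; points are estimates and error bars 1 SE. The DGC points lie between 1.59 and 3.04, the CA1 and summed points are lower but above 0, and the bulk points for Trhr, Atp2b4 and Ano2 lie below 0.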

How the data were processed

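Bulk RNAseq and snRNAseq were carried out on adult hippocampus, 2 mutant and 2 control mice per assay, each library being a separate mouse. For bulk tissue the authors aligned reads to mm10 with RSEM 1.3.0 and Bowtie2 2.2.9 and deposited an expected count and a TPM value per gene. A deposited matrix of the expected counts divided by a size factor per library (a signal, not a count) was used in limma as an alternative. For nuclei the authors deposited UMI counts per gene and nucleus from Cell Ranger 3.1.0, introns included, with a cell type for each nucleus, used as given. How doublets were treated is not given in the sources used here.

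Expected counts were rounded. UMI counts were summed per mouse and cell type, in types with at least 10 nuclei per library. Genotypes were compared with edgeR 4.0.16 (R 4.3.3; quasi-likelihood, TMM, filter on low counts), with Benjamini-Hochberg adjustment over all genes tested, and FC above 3 (bulk) or 2 (nuclei) at an adjusted p below 0.05. Differences between cell types were tested in a model with terms for mouse and type, at an adjusted p below 0.05. DESeq2 1.42.0 and limma 3.58.1 (log2 of value + 1) were alternatives. On simulated counts with 200 changed genes, the test recovered 85.5% of 4-fold changes in DGC nuclei and 97% of 6-fold changes in bulk. Shares have exact (Clopper-Pearson) 95% intervals. The text names the 6 genes, the dorsal genes, listed relatives that were called and the nearest genes by correlation, of which that for Ano2 is not reported here. These members and lists were chosen with earlier results of these data known. Same-numbered libraries were not treated as pairs, since no label ties the numbers to a shared litter or day.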

Additional observations from a re-analysis of the deposited data

Results flagged for a closer look

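The mutant effect differed between DGCs and CA1 pyramidal cells for 3 ventral genes, by the interaction test over all genes (edgeR, adjusted p below 0.05). It was larger in DGCs by 1.61 on the log2 scale for Stk32b, by 1.20 for Pde9a and by 1.95 for Ano2. All 3 calls were lost without control replicate 2 or without mutant replicate 2.

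Choroid plexus nuclei entered no comparison, because only 2 libraries held any. Pde9a was at 80.3 UPM (77 UMIs) in the 184 choroid plexus nuclei of mutant replicate 2. Control replicate 1 had 9 such nuclei and 0 UMIs of Pde9a, and a count of 0 there allows up to 50.3 UPM, for counting error only.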

How the results depend on the processing

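All 6 ventral genes were called higher in DGC nuclei with DESeq2, with other size factors, without a filter, without either control and without the nuclei of highest UMI count, and 4 after thinning. Leaving out 1 library gave 0 to 6 calls, with 0 when mutant replicate 2 was left out. In bulk, the log2 changes of Trhr and Ano2 reached -2.08 and -2.82 without mutant replicate 1, which leaves 1 mutant library. The bulk log2 change of Stk32b ran from -0.21 to 0.12 when 1 library was left out, with 0.04 without control replicate 2, 0.12 without mutant replicate 2 and the lowest value without mutant replicate 1. That of Pde9a in mossy cells ran from -1.84 without mutant replicate 2 to 0.24 without mutant replicate 1. For all nuclei summed, DESeq2 called 1 gene.

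The contrast of DGCs with the mean of the other types gave 0 to 2 calls when 1 library was left out, and 6 with all other nuclei summed as the reference, chosen after seeing the data. Leaving out 1 library gave 0 to 5 calls against CA1 and 0 to 6 against all other nuclei, also chosen after seeing the data. The causes were not tested.

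With the replicate number as a block, 6 ventral genes were called in DGC nuclei, 0 in bulk and 1 (Trhr) in all nuclei. Same-numbered libraries deviated together with a correlation of 0.064 in bulk, 0.193 in DGC nuclei and 0.516 in all nuclei. In those 3 comparisons, where the block was run, it changed no other call of a ventral gene. Over all genes in DGC nuclei, the block called 308 higher and 261 lower and no filter 295 and 261, against 124 and 96, and DESeq2 called 90 and 69. In bulk, DESeq2 called 73 and 66, the block 2 and 24 and no filter 201 and 112, against 4 and 41. In all nuclei, DESeq2 called 119 and 172 and the block 223 and 220, against 0 and 0.

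Thinning lowered the mutant minus control difference in the share of DGC nuclei with a UMI from 22.8 to 5.08 percentage points for Trhr, from 21.9 to 11.1 for Atp2b4 and from 17.0 to 6.97 for Stk32b. Counted per 1000 nuclei that are not DGCs instead of per 1000 nuclei, the mutant minus control difference was -67.5 instead of -42.0 for Atp2b4, -21.9 instead of -12.7 for Stk32b, -25.6 instead of -15.5 for Pde9a, -22.7 instead of -12.8 for Ano2 and -21.8 instead of -13.0 for Timp2. For Trhr, and for nuclei with at least 2 of the 6 genes, the genotypes overlapped per 1000 nuclei but not per 1000 nuclei that are not DGCs. With 2 mice per genotype, and 7 to 38 UMIs per gene in the DGC nuclei of mutant replicate 1, small differences were not detectable.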
